A study of Homo sapiens with 8 samples.

Results

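Long noncoding host transcripts, named MIR...HG or SNHG, take their names from microRNAs or small nucleolar RNAs (snoRNAs) in their introns or exons. They were selected by gene symbol alone, as MIR...HG or SNHG followed by a number, and comprised 90 of 28265 annotated genes, 62 microRNA hosts and 28 snoRNA hosts. They were followed across 4 conditions of IMR90, a strain of human fetal lung fibroblasts, in a study of senescence induced by inflachromene (ICM), a small molecule that binds the chromatin proteins HMGB1 and HMGB2. The conditions were young cells without ICM, cells after 3 or 6 days of ICM, and cells labelled MetaICM, a label that is not explained in the sources used here. Each had 2 libraries of "factory" RNA-Seq, an approach meant to capture nascent transcripts, although the labels also describe selection for poly(A). No vehicle is named for the young cells, and all libraries share the same cell strain. Nothing states that the 2 libraries of a condition are separate cultures, so p-values measure the spread between these libraries, which may be technical.

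A microRNA is cut from a hairpin in its host by DROSHA and DICER1 and then guides an AGO protein to messages that match its seed, bases 2 to 8. An intronic snoRNA is trimmed from the excised intron of its host and guides methylation (box C/D) or pseudouridylation (box H/ACA) of ribosomal and other RNAs, while the spliced exons of many SNHG transcripts are removed by nonsense-mediated decay. Exon reads over a host therefore report the transcript, not the amount of the mature small RNA.

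The mature microRNAs of the hosts that changed most are shown because several share a seed, here in capitals (RefSeq sequences, GRCh38.p14). Hosts that rose with ICM carry the following ones, and miR-29b and miR-29c differ from each other outside the seed only.
miR-34a-5p: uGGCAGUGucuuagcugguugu
miR-210-3p: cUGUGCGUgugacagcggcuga
miR-22-3p: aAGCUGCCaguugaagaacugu
miR-193b-3p: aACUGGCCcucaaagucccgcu
miR-365a-3p: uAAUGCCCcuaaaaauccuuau
miR-29b-3p: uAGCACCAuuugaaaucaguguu
miR-29c-3p: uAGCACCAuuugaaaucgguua
miR-4458: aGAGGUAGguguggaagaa

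MicroRNA hosts called lower at 3 or 6 days carry the 6 microRNAs of the miR-17-92 cluster, which fall into 4 seed groups, miR-503, miR-924 and miR-600. In this cluster miR-17 and miR-20a have 1 seed, miR-19a and miR-19b another.
miR-17-5p: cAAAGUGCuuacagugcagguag
miR-20a-5p: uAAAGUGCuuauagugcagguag
miR-18a-5p: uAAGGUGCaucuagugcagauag
miR-19a-3p: uGUGCAAAucuaugcaaaacuga
miR-19b-3p: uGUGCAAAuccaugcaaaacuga
miR-92a-3p: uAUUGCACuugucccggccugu
miR-503-5p: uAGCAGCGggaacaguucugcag
miR-924: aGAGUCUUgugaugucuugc
miR-600: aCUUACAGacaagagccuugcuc

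MIR100HG on chromosome 11 and MIR99AHG on chromosome 21 carry paralogous clusters, and the levels of both are given further on. The miR-125b sequence is identical in both. The others differ at 1 base each, counted from the 5′ end, A16U from miR-100 to miR-99a and A19G from let-7a to let-7c, both outside the seed. The let-7 seed is also that of miR-4458.
miR-100-5p: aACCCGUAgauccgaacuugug
miR-99a-5p: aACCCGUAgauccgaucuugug
let-7a-5p: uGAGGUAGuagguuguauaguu
let-7c-5p: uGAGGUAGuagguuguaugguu
miR-125b-5p: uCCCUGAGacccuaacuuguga

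Box C/D snoRNAs are shown for SNHG1 and SNHG29, whose snoRNA genes have counts of their own beside those of the host exons. In the sequences below, read from GRCh37 along the host's strand, capitals mark the letters TGATGA of box C and the last CTGA, the letters of box D. The 3 of SNHG1 lie on the minus strand at chr11:62622484-62622555, chr11:62621376-62621440 and chr11:62621135-62621204, and SNORD49A on the plus strand at chr17:16343350-16343420.
SNORD27: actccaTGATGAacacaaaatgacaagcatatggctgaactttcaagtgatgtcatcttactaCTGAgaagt
SNORD29: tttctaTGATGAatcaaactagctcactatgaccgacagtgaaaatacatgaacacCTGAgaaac
SNORD30: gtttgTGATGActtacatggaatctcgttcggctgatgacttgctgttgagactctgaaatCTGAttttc
SNORD49A: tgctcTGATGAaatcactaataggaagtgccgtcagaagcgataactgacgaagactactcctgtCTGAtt

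Many snoRNA hosts belong to the 5′ terminal oligopyrimidine (TOP) class, in which transcription begins at a C followed by a run of pyrimidines. Promoter sequences were found for 71 of the 90 host genes (47 microRNA hosts and 24 snoRNA hosts). A C at the start followed by at least 4 pyrimidines occurred in 6 of the 24 snoRNA hosts (25%), in 2 of the 47 microRNA hosts (4.26%) and in 5.14% of all 27305 genes with such a sequence. The windows below run from 20 bases before to 30 after the annotated start (RefSeq, GRCh38.p14), with the pyrimidine run that begins at the start in capitals. SNHG5 (chr6:85678704-85678753, minus strand), SNHG12 (chr1:28581844-28581893, minus), SNHG4 (chr5:139274081-139274130, plus) and SNHG19 (chr16:2155329-2155378, minus) met the criterion, and SNHG1 (chr11:62855856-62855905, minus), whose run is interrupted early, did not.
SNHG5: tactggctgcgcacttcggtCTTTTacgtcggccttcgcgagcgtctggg
SNHG12: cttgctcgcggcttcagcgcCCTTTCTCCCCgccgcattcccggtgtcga
SNHG4: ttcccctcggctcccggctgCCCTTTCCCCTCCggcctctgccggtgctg
SNHG19: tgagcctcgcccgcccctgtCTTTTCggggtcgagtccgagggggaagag
SNHG1: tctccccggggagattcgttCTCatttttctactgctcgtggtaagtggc

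Short binding motifs were counted in the same promoters, from 250 bases before to 50 after the start, searched on both strands. CACGTG, the E-box bound by MYC, occurred in 2 of 24 snoRNA host promoters (8.33%, SNHG7 and SNHG30) and in 8.77% of all genes. It was absent from the 47 microRNA host promoters. The E2F motif letters GGCGCGAA occurred in SNHG1 and SNHG17 (8.33% against 1.19% of all genes) and in no microRNA host. TTTGAA, the CHR element of many cell cycle genes, occurred in 11 of 47 microRNA host promoters (23.4%) and in 18.2% of all genes. Among the 24 snoRNA hosts it occurred in 2 (8.33%). GGCGGGAA, another E2F form, occurred in SNHG18 (4.17% of snoRNA hosts), MIR762HG (2.13% of microRNA hosts) and 3.79% of all genes. TGAGTCA, the AP-1 site (TGACTCA on the other strand), occurred in 4 microRNA host promoters (8.51%) and 6.05% of all genes. TGACGTCA, the CRE site, occurred in 1 (2.13%) and 2.25%. Neither occurred in a snoRNA host promoter. A match describes letters in these windows and nothing more.

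Not all hosts were expressed in IMR90. The exons of 7 received no read in any library, those of 25 others between 1 and 20 reads over all libraries, and 58 had more than 20, among them 31 microRNA hosts and 27 of the 28 snoRNA hosts. After the filter on low counts, 55 were tested in at least 1 comparison (30 microRNA hosts and 25 snoRNA hosts), 52 of them in all 5. Per kilobase of exon, tested snoRNA hosts had a median of 9.26 RPKM (counts scaled to exon length and library total) and tested microRNA hosts 2.23 RPKM. Levels above 10 RPKM were reached by 10 snoRNA hosts and 8 microRNA hosts.

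The host with the highest level per length was MIR663AHG, with group means from 1841 RPKM after 6 days of ICM to 3726 RPKM in young cells. Next came MIR22HG, with a mean over all libraries of 54.9 RPKM, SNHG1 with 38.4 RPKM, SNHG5 with 37.7 RPKM and SNHG8 with 33.2 RPKM. The order of SNHG1 and SNHG5 rested on less than their spread, from 28.1 to 53.4 RPKM and from 25.1 to 43.8 RPKM over the 8 libraries. SNHG8, from 21.9 to 39.1 RPKM, overlapped with both.

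**Figure D1:**
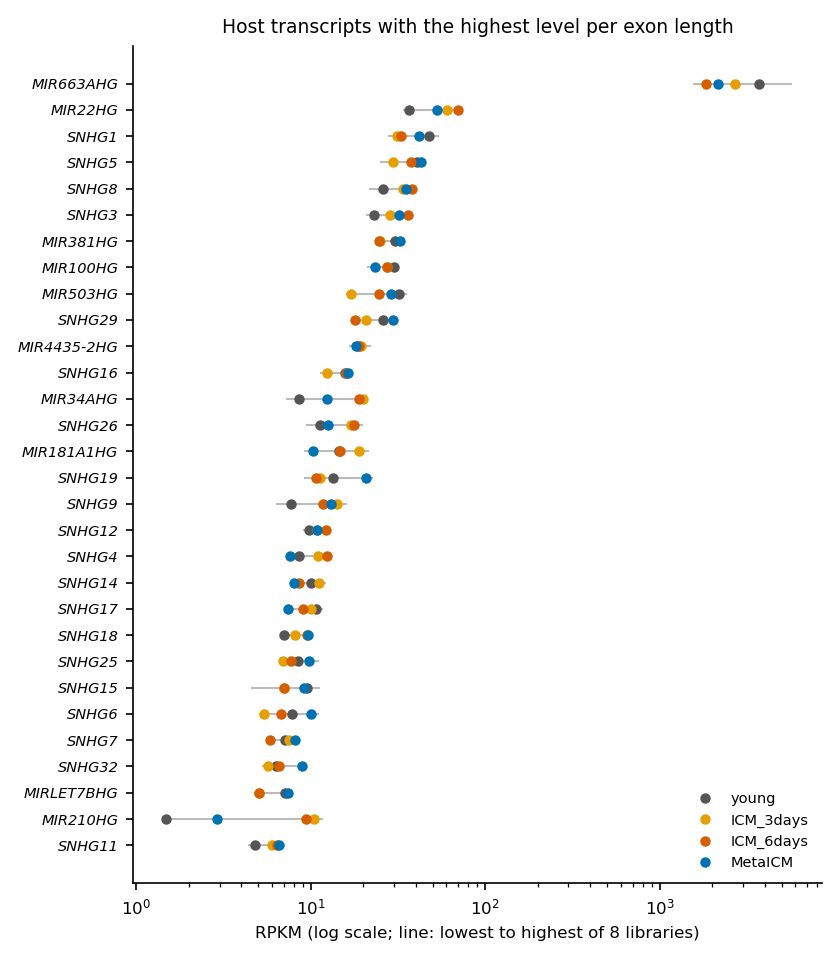
Level per exon length (RPKM, log scale) of the 30 tested host transcripts with the highest mean, as condition means (points, n = 2 libraries) over the range of all 8 libraries (lines). MIR663AHG stands apart at 2607 RPKM on average, and MIR22HG follows at 54.9 RPKM.

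The libraries held between 12095123 and 23166405 counted read pairs, young replicate 2 being the smallest. Host transcripts without MIR663AHG took between 0.122% and 0.139% of the counts. MIR663AHG alone took 0.683% in young replicate 2 and between 0.194% and 0.406% in the others. The young libraries were the pair most apart, with a median absolute log2 difference over genes of 0.22 against 0.11 to 0.16 for the other pairs. Fibroblast markers were abundant, with COL1A1 between 1874 and 8805 CPM (counts scaled to the library total), whereas the epithelial markers EPCAM, CDH1, KRT5 and SFTPC stayed at or under 0.644 CPM, the endothelial markers PECAM1 and CDH5 at or under 0.446 CPM, and CD3E at 0. The endothelial marker VWF had 1.43 to 4.89 CPM and was called higher after 6 days (0.88) and lower in MetaICM against 6 days (-1.55), where the leukocyte marker PTPRC, at 0.166 to 1.29 CPM, was lower too (-2.25). Of 8 fibroblast markers, 6 were lower after 3 days and 5 after 6 days of ICM, and CD68, a lysosomal gene of macrophages, went from 4.22 and 5.35 CPM in young cells to between 16.0 and 20.5 CPM with ICM. The proliferation marker MKI67 moved with the conditions, at 543 and 608 CPM in young cells, 11.8 to 27.8 CPM with ICM, and 264 and 261 CPM in MetaICM. CDKN1A, a p53 target and cell cycle inhibitor, had 95.2 to 137 CPM in young cells, 645 to 803 CPM with ICM and 365 to 391 CPM in MetaICM. The part of these shifts in the changes of the hosts was not tested. In such bulk libraries, fewer cells of a type and less RNA per cell cannot be told apart.

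The first question was which hosts change as cells enter ICM-induced arrest. A transcript was called changed when edgeR gave an adjusted p under 0.05 and its log2FC, with standard error SE, exceeded 0.6 in size. After 3 days of ICM, 5 of 54 tested hosts were higher (9.26%) and 4 lower (7.41%) than in young cells, against 8.85% higher and 13.2% lower among all 15692 genes tested. After 6 days, 8 of 55 were higher (14.5%) and 3 lower (5.45%), against 13.3% and 17.2% of 15950 genes. The shares of higher hosts were near those of all genes at both times, and the shares of lower hosts were below them, a difference that was not tested. Lower hosts after 6 days numbered 7 without young replicate 2, 5 without young replicate 1, and 6 with a replicate block or with all libraries in one fit. Higher hosts numbered 3 after 3 days without replicate 1 of that time and 5 after 6 days without replicate 2 of that time. The median log2FC of the hosts was -0.02 after 3 days and -0.11 after 6 days, beside 0.01 and 0.00 over all genes.

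MIR34AHG, the host of the p53-induced miR-34a, rose at both times. Its exons received 40.4 and 30.5 CPM in the young libraries, 83.2 and 82.0 CPM at 3 days, 79.7 and 78.5 CPM at 6 days, and 55.5 and 47.3 CPM in MetaICM. All 4 libraries with ICM lay above the other 4, and both MetaICM libraries lay above the young ones. The log2FC was 1.21 after 3 days (SE 0.15, adjusted p = 8.77e-05) and 1.15 after 6 days (SE 0.14, adjusted p = 0.000131). MetaICM differed from young cells by 0.53 (adjusted p = 0.0281), under the minimum change. The locus on the minus strand of chromosome 1 (hg19, 9208070 to 9242397) holds the miR-34a hairpin in an exon, and 110 exon bases shared with it plus 113 shared with LNCTAM34A on the opposite strand yield no counts.

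MIR210HG, whose intron holds the hypoxia-induced miR-210, showed the highest log2FC of any host. It received 3.33 and 3.48 CPM in young cells, 26.8 and 21.4 CPM after 3 days, 21.2 and 22.0 CPM after 6 days, and 6.19 and 7.12 CPM in MetaICM. The ICM libraries were far above both other conditions, and MetaICM lay between. The log2FC was 2.83 after 3 days (SE 0.21, adjusted p = 9.73e-07), 2.66 after 6 days (SE 0.18, adjusted p = 1.45e-06) and 0.97 in MetaICM (SE 0.21, adjusted p = 0.00926), where it was the 1 host called higher than in young cells. Without MetaICM replicate 2 the last of these was no longer called (0.87, adjusted p = 0.114).

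MIR193BHG carries the miR-193b and miR-365a hairpins, both in its intron. It received 1.55 and 2.48 CPM in young cells, 4.92 and 4.85 CPM after 3 days, 5.05 and 7.49 CPM after 6 days, and 1.39 and 1.61 CPM in MetaICM. The ICM libraries did not overlap with the others, whereas MetaICM and young cells overlapped. It rose by a log2FC of 1.30 after 3 days (SE 0.31, adjusted p = 0.00731) and 1.67 after 6 days (SE 0.31, adjusted p = 0.00177).

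MIR22HG, the host of miR-22 and the most highly expressed of these per exon length, was raised by less. Young libraries had 107 and 93.6 CPM, those after 3 days 187 and 142 CPM, those after 6 days 197 and 185 CPM, and MetaICM 145 CPM in both. Young libraries were the lowest. The log2FC was 0.71 after 3 days (SE 0.15, adjusted p = 0.00399), lost without replicate 1 of that time (0.49, adjusted p = 0.110), and 0.93 after 6 days (SE 0.11, adjusted p = 0.000123).

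MIR29B2CHG, the host of miR-29b and miR-29c, microRNAs known to target collagen messages, was called after 6 days only. It received 2.50 and 2.48 CPM in young cells, 4.00 and 3.17 CPM after 3 days, 4.78 and 5.05 CPM after 6 days, and 2.28 and 2.34 CPM in MetaICM. Levels at 6 days exceeded all others, with a log2FC against young cells of 0.97 (SE 0.24, adjusted p = 0.00836) that was not called without ICM replicate 2 of that time (0.94, adjusted p = 0.0647). The difference between 6 and 3 days, 0.43, did not pass the test (adjusted p = 0.191). MIR4458HG, the host of miR-4458, had 1.90 and 1.74 CPM in young cells, 4.23 and 2.83 CPM after 3 days and 5.58 and 2.50 CPM after 6 days. Its log2FC of 0.96 and 1.14 (adjusted p = 0.0417 and 0.0375) were 0.61 and 0.45 without the higher ICM library of each pair and no longer called (adjusted p = 0.431 and 0.504). They were also lost without a young library, replicate 2 at 3 days (0.89, adjusted p = 0.0717) and replicate 1 at 6 days (1.20, adjusted p = 0.0720).

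MIR17HG, the transcript of the growth-promoting miR-17-92 cluster, fell in steps. It received 25.7 and 19.9 CPM in young cells, 9.29 and 9.24 CPM after 3 days, 5.58 and 5.31 CPM after 6 days, and 12.3 and 12.0 CPM in MetaICM. The 4 conditions did not overlap, and the order from high to low was young, MetaICM, 3 days and 6 days. The log2FC was -1.31 after 3 days (SE 0.18, adjusted p = 0.000208), -2.07 after 6 days (SE 0.18, adjusted p = 1.09e-05) and -0.92 in MetaICM (SE 0.16, adjusted p = 0.00332). All 6 hairpins lie in its exons (chromosome 13, plus strand, hg19, 92000074 to 92006829), and the 473 bases they cover received no counts by the counting rule.

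MIR924HG, the host of miR-924, fell most in relative terms but from a low level. It had 3.03 and 2.90 CPM in young cells, 0.414 and 0.607 CPM after 3 days, 0.107 and 0.319 CPM after 6 days, and 1.73 and 1.35 CPM in MetaICM. The libraries with ICM held 2 to 9 read pairs each, and none overlapped with young cells or MetaICM. Its log2FC was -2.56 after 3 days (SE 0.40, adjusted p = 0.00047), -3.75 after 6 days (SE 0.47, adjusted p = 0.000128) and -0.96 in MetaICM (adjusted p = 0.0335). The MetaICM change was not called without either MetaICM library (-1.11 and -0.76, adjusted p = 0.111 and 0.314).

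MIR503HG, the host of the cell cycle regulator miR-503, was lower after 3 days but not called after 6. Its levels were 27.7 and 22.4 CPM in young cells, 14.1 and 12.6 CPM after 3 days, 19.5 and 19.1 CPM after 6 days, and 24.3 and 21.2 CPM in MetaICM. The 3-day libraries were the lowest and the 6-day libraries came next. The log2FC was -0.91 after 3 days (SE 0.17, adjusted p = 0.00186) and -0.39 after 6 days (adjusted p = 0.0591), and between the times it was 0.52 (SE 0.13, adjusted p = 0.00889), under the minimum change.

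**Figure D2:**
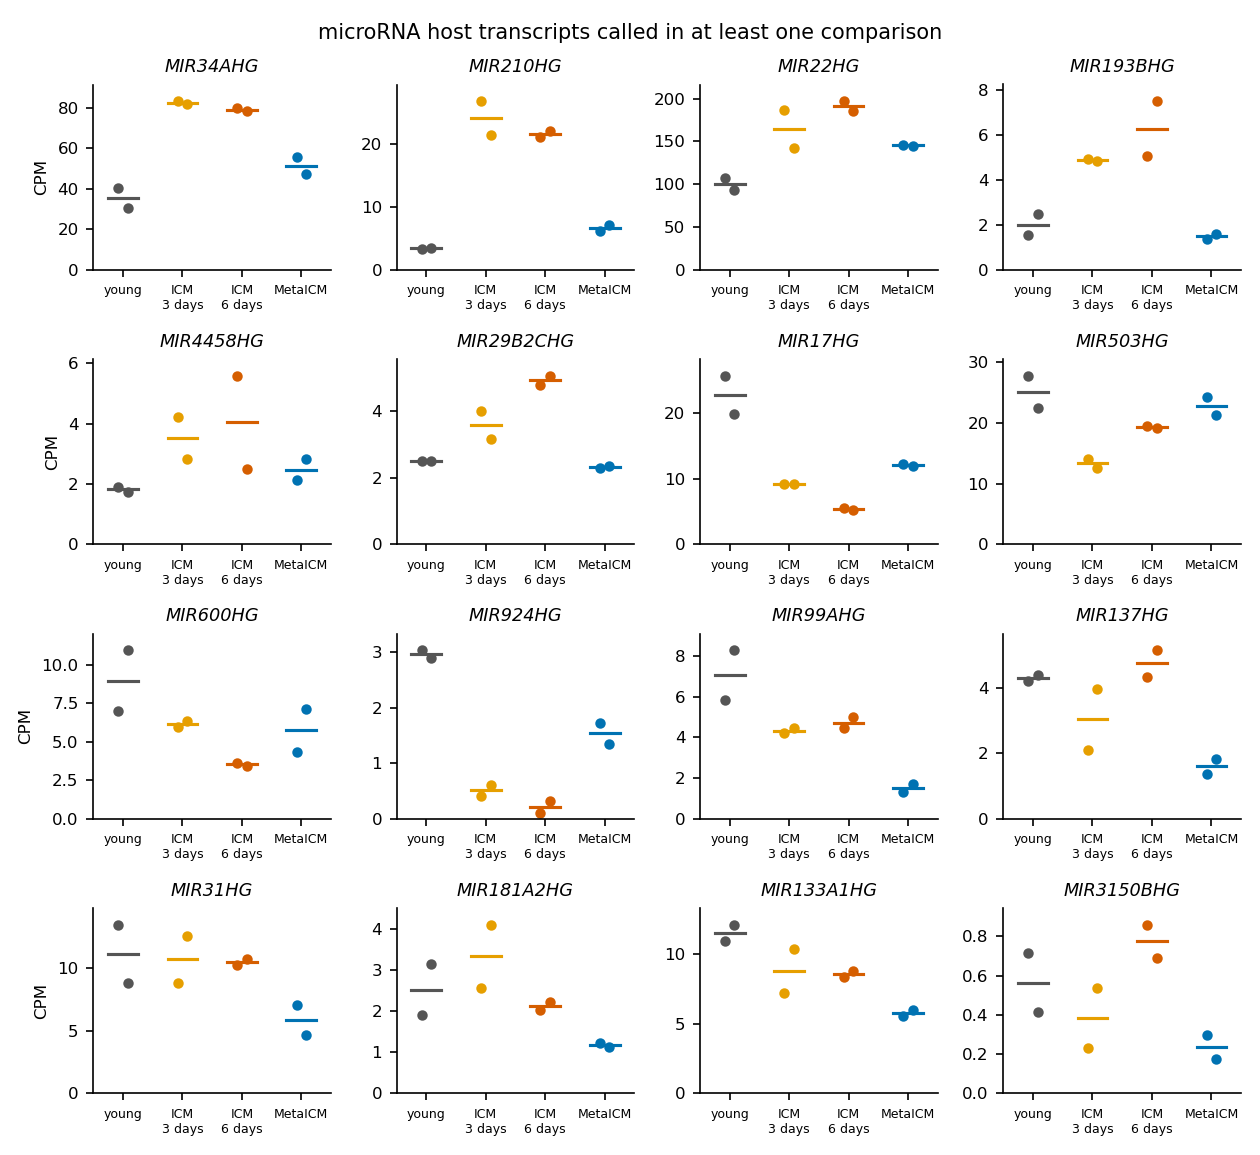
CPM (linear axes from 0) of the 16 microRNA hosts called in at least 1 comparison, per library (points) with the condition mean (short lines, n = 2). MIR34AHG, MIR210HG and MIR193BHG are high in the 4 ICM libraries, MIR17HG and MIR924HG low in them, and MIR99AHG and MIR137HG low in MetaICM.

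Whether the later time point adds to the earlier one was asked by comparing 6 with 3 days of ICM. Of 54 hosts tested, 2 were lower at 6 days (3.70%), beside 4.54% lower and 3.53% higher among all 15845 genes tested. edgeR called 0 hosts higher, as did DESeq2, and 5 were higher at an unadjusted p under 0.05. The lower hosts were MIR17HG, with a log2FC of -0.77 (SE 0.18, adjusted p = 0.00481), and MIR600HG. MIR600HG had 7.02 and 10.9 CPM in young cells, 5.93 and 6.34 CPM after 3 days, 3.65 and 3.40 CPM after 6 days, and 4.36 and 7.12 CPM in MetaICM. Levels at 6 days were below all others. Its log2FC was -0.80 between the times (SE 0.21, adjusted p = 0.0114) and -1.33 between 6 days and young cells (SE 0.26, adjusted p = 0.00206). Between the times, the call was lost without either 6-day library (-0.84 and -0.75, adjusted p = 0.0552 and 0.0907).

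MetaICM was compared with young cells and with 6 days of ICM, and the 2 comparisons share the MetaICM libraries. Against young cells, 1 of 54 hosts was higher (1.85%) and 7 were lower (13.0%), beside 7.41% and 8.99% of 15904 genes tested. Without young replicate 1, 9 were higher and 9 lower, and without MetaICM replicate 2 the lower ones numbered 4. Against 6 days of ICM, 6 of 54 were higher (11.1%) and 11 lower (20.4%), beside 15.7% and 12% of 16036 genes. All 7 hosts lower than in young cells were microRNA hosts, and 4 of these calls held at an adjusted p under 0.01. The median log2FC of the 29 microRNA hosts tested was -0.32, that of the 25 snoRNA hosts 0.17 and that of all genes 0.00. The difference between the 2 families was not tested.

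Several microRNA hosts were lowest in MetaICM. MIR99AHG, the host of miR-99a, let-7c and miR-125b, had 5.83 and 8.28 CPM in young cells, 4.23 and 4.45 CPM after 3 days, 4.46 and 4.99 CPM after 6 days, and 1.34 and 1.69 CPM in MetaICM. MetaICM lay below every other library, with a log2FC of -2.20 against young cells (SE 0.27, adjusted p = 0.000637) and -1.63 against 6 days (SE 0.24, adjusted p = 7.05e-06). Its paralog MIR100HG, the host of miR-100, let-7a and the other miR-125b gene, had 234 and 231 CPM in young cells, 191 and 232 CPM after 3 days, 212 and 209 CPM after 6 days, and 196 and 165 CPM in MetaICM. Those ranges were close to each other, and the log2FC of -0.37 against young cells (SE 0.12, adjusted p = 0.0380) was under the minimum change. The difference between the paralogs was not tested.

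MIR137HG, the host of the neuronal miR-137, had 4.22 and 4.39 CPM in young cells, 2.11 and 3.98 CPM after 3 days, 4.35 and 5.15 CPM after 6 days, and 1.39 and 1.82 CPM in MetaICM. MetaICM was again below all others. The log2FC was -1.41 against young cells (SE 0.27, adjusted p = 0.00477) and -1.55 against 6 days (SE 0.24, adjusted p = 1.32e-05). MIR133A1HG, the host of the muscle microRNAs miR-133a and miR-1, had 10.9 and 12.1 CPM in young cells and 5.54 and 5.99 CPM in MetaICM, between which the ICM libraries lay at 7.22 to 10.4 CPM. It was lower in MetaICM than in young cells by a log2FC of -0.99 (SE 0.18, adjusted p = 0.00359).

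MIR31HG, the host of miR-31 next to the CDKN2A locus on chromosome 9, had 13.4 and 8.78 CPM in young cells, 8.83 and 12.5 CPM after 3 days, 10.2 and 10.7 CPM after 6 days, and 7.08 and 4.69 CPM in MetaICM. Young and ICM libraries overlapped, and MetaICM was below them. The log2FC was -0.94 against young cells (adjusted p = 0.0211) and -0.84 against 6 days (adjusted p = 0.000367). Without MetaICM replicate 2 they were -0.65 (adjusted p = 0.206) and -0.56 (adjusted p = 0.0177), and without young replicate 1 the former was -0.59 (adjusted p = 0.0187), none of which was called.

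MIR181A2HG, the host of miR-181a and miR-181b, received 1.90 and 3.15 CPM in young cells, 2.57 and 4.11 CPM after 3 days, 2.04 and 2.23 CPM after 6 days, and 1.24 and 1.13 CPM in MetaICM. MetaICM was lowest. The log2FC was -1.06 against young cells (adjusted p = 0.0447) and -0.85 against 6 days (adjusted p = 0.0190), both lost without either MetaICM library (adjusted p between 0.0563 and 0.250). The former was also lost without young replicate 2 (-0.69, adjusted p = 0.208) and the latter without 6-day replicate 2 (-0.79, adjusted p = 0.0913). MIR3150BHG, with 0.174 to 0.859 CPM over all libraries, was lower in MetaICM than after 6 days by -1.71 (adjusted p = 0.00757), a call lost without 6-day replicate 1 (-1.56, adjusted p = 0.0951) or MetaICM replicate 2 (-1.36, adjusted p = 0.121).

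Several hosts that ICM had changed differed between MetaICM and 6 days in the other direction, with the 6-day libraries shared by both comparisons. MIR210HG differed by -1.69, MIR193BHG by -2.06, MIR29B2CHG by -1.08 and MIR34AHG by -0.62, while MIR17HG was higher by 1.16 and MIR924HG by 2.81 (adjusted p of 0.00019 or less in each). The MIR34AHG difference was -0.51 without MetaICM replicate 2, under the minimum change. MIR600HG was higher by 0.71 (adjusted p = 0.0103), and by 0.31 without MetaICM replicate 2 (adjusted p = 0.357). The log2FC of MIR22HG, -0.40 (adjusted p = 8.08e-05), was under the minimum change, and SNHG3 (-0.17), SNHG26 (-0.50) and MIR4458HG (-0.69, adjusted p = 0.0501) were not called.

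**Figure D3:**
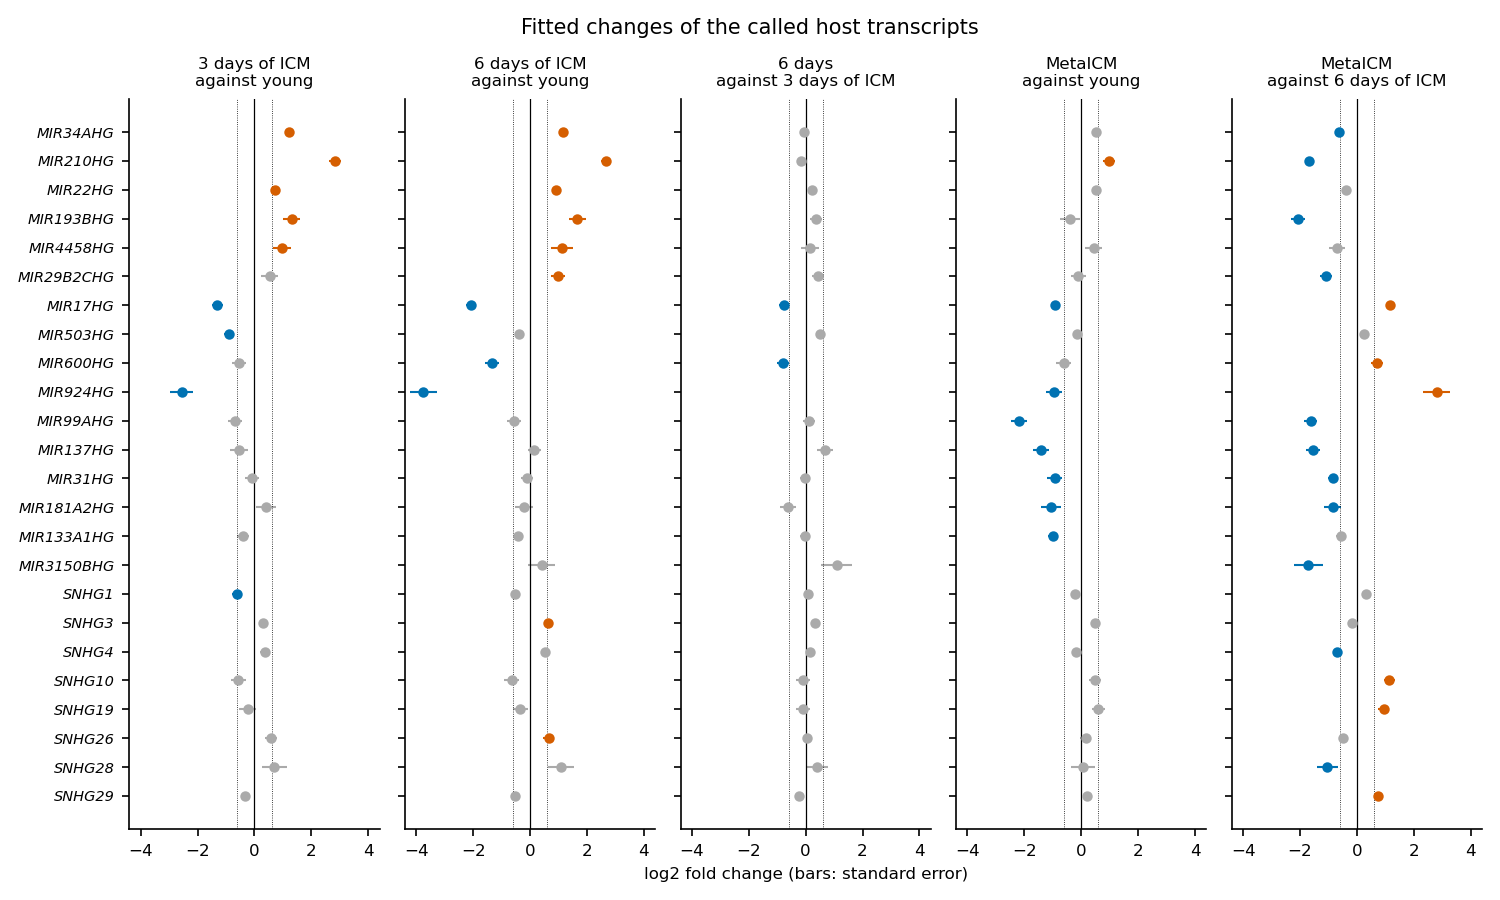
Fitted log2FC (points) with its standard error (bars) of the 24 called hosts in the 5 comparisons. Orange marks called higher, blue called lower, grey not called, and dotted lines the minimum change of 0.6, so that MIR210HG reaches 2.83 after 3 days and MIR924HG -3.75 after 6 days of ICM.

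Among the 25 tested snoRNA hosts, 8 were called in at least 1 comparison. After 3 days 0 were higher and 1 was lower (4%), beside 8.85% and 13.2% of all genes. After 6 days 2 were higher (8%) and 0 lower, beside 13.3% and 17.2%. SNHG1, which carries 8 box C/D snoRNAs, had 81.3 and 64.4 CPM in young cells, 52.1 and 42.8 CPM after 3 days, 51.1 and 49.3 CPM after 6 days, and 63.9 and 62.8 CPM in MetaICM. Libraries with ICM were below all others. It was lower after 3 days by a log2FC of -0.62 (SE 0.16, adjusted p = 0.0112) and after 6 days by -0.54 (SE 0.13, adjusted p = 0.00826), the latter under the minimum change. The former was not called without young replicate 1 (-0.44, adjusted p = 0.0171), without ICM replicate 2 (-0.47, adjusted p = 0.15) or with library totals as scale (-0.54).

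SNHG3, the host of the abundant box H/ACA snoRNAs SNORA73A and SNORA73B, and SNHG26, the host of SNORD93, were higher after 6 days. SNHG3 received 58.4 and 49.5 CPM in young cells, 74.3 and 58.4 CPM after 3 days, 79.9 and 89.3 CPM after 6 days, and 72.5 and 77.8 CPM in MetaICM. Its 6-day libraries exceeded all others (log2FC 0.64 against young cells, SE 0.13, adjusted p = 0.00251). SNHG26 received 7.25 and 10.1 CPM in young cells, 12.2 and 13.8 CPM after 3 days, 12.0 and 15.0 CPM after 6 days, and 9.01 and 10.1 CPM in MetaICM. Young cells and MetaICM overlapped and lay below the ICM libraries (log2FC 0.65 after 6 days, SE 0.21, adjusted p = 0.0275). The SNHG3 change was under the minimum without young replicate 2 (0.54) or 6-day replicate 2 (0.57), and that of SNHG26 was not called without young replicate 1 (0.41, adjusted p = 0.101) or 6-day replicate 2 (0.48, adjusted p = 0.232).

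Between MetaICM and 6 days of ICM, 3 of 25 snoRNA hosts were higher (12%) and 2 lower (8%). Among all 16036 genes tested, 15.7% were higher and 12% lower. SNHG10, the host of the Cajal body RNA SCARNA13, had 3.70 and 2.92 CPM after 6 days and 7.33 and 7.29 CPM in MetaICM, with 6.01 and 4.22 CPM in young cells. SNHG19, the host of SNORD60, had 3.44 and 4.25 CPM after 6 days, 6.73 and 8.03 CPM in MetaICM and 5.83 and 3.73 CPM in young cells. For both, MetaICM was above every other library. SNHG10 differed by a log2FC of 1.14 (SE 0.19, adjusted p = 2.79e-05) and SNHG19 by 0.94 (SE 0.19, adjusted p = 0.000215).

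SNHG29, the host of SNORD49A and SNORD65, had 72.5 and 57.5 CPM in young cells, 54.8 and 49.8 CPM after 3 days, 43.5 and 46.4 CPM after 6 days, and 73.7 and 75.6 CPM in MetaICM. It was lowest at 6 days and highest in MetaICM, with a log2FC of 0.73 between them (SE 0.08, adjusted p = 7.33e-08). SNHG4, the host of SNORA74A, had 11.8 and 14.6 CPM in young cells, 17.7 and 16.4 CPM after 3 days, 18.4 and 19.8 CPM after 6 days, and 11.7 CPM in both MetaICM libraries. The ICM libraries lay above the other 4, and MetaICM was lower than 6 days by -0.71 (SE 0.11, adjusted p = 2.14e-05). Against young cells SNHG4 was not called, at 0.37 after 3 days (adjusted p = 0.141) and 0.54 after 6 days (adjusted p = 0.0224), under the minimum change. Its exons share 601 bases with MATR3, where no read is counted. SNHG28, at 0.654 to 2.07 CPM, was lower in MetaICM than at 6 days by -1.04 (adjusted p = 0.0254), but by -0.49 without 6-day replicate 2 (adjusted p = 0.474), and was not called without either MetaICM library (-1.07 and -0.98, adjusted p = 0.0602 and 0.132).

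**Figure D4:**
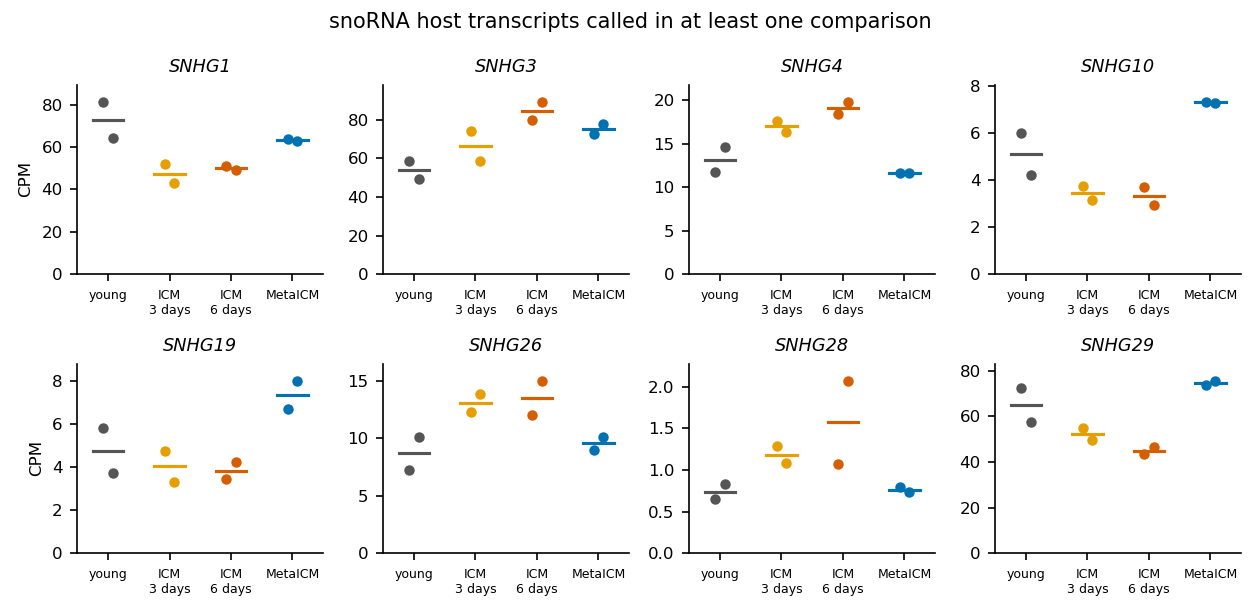
CPM (linear axes from 0) of the 8 snoRNA hosts called in at least 1 comparison, per library (points) with the condition mean (short lines, n = 2). SNHG10, SNHG19 and SNHG29 are highest in MetaICM. SNHG4 and SNHG26 have higher levels in the ICM libraries, but against young cells SNHG4 was not called and SNHG26 was called after 6 days only.

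The deposited counts also list the small RNAs themselves, whose counts share no read pairs with the host exons. Within the spans of 84 of the 90 hosts, on the same strand, lie 227 small RNAs, 162 of them wholly in introns. SNHG28 was not among these 84 hosts. None of the 33 that lie wholly in exons had a count, since reads on 2 genes were discarded. Of the intronic ones, 78 in 32 hosts passed the filter on low counts in at least 1 comparison. Reads on such a row may come from the unspliced host, the intron or the small RNA, which cannot be told apart here.

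Where a host was called changed, the small RNAs in its introns had the same sign in 25 of 26 pairs of host and small RNA (11 hosts), and 10 of the 26 were called themselves. The exception was SNORD65 in SNHG29, at -0.15 beside 0.73 for the exons between MetaICM and 6 days. Where the host was not called, 235 of 338 pairs had the same sign (69.5%), 28 small RNAs were called with the sign of the host and 1 against it. Over all tested, between 71 and 76 intronic small RNAs a comparison, 1 was higher and 3 lower after 3 days, 4 higher and 10 lower after 6 days, 6 lower between 6 and 3 days, 5 lower in MetaICM against young cells, and 5 higher and 5 lower in MetaICM against 6 days. These shares are to be read against those of all genes given above, such as 13.3% higher and 17.2% lower after 6 days. With DESeq2, 15 of the 39 calls of small RNAs held, and those lost include the calls below of SNORD22, SNORD30, MIR365A and SNORD93 after 6 days, of MIR181A2 in MetaICM against young cells and of the SNORD116 copies. Pairs of 1 host share a transcript and all pairs share libraries, so these counts are a description.

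MIR210 had 0.0595 and 0.248 CPM in young cells, 1.61 and 0.674 CPM after 3 days, 1.18 and 0.903 CPM after 6 days, and 0.545 and 0.261 CPM in MetaICM. The ICM libraries were the highest, as for the exons of MIR210HG, and the young libraries held 1 and 3 read pairs. Its log2FC was 3.02 after 3 days (SE 0.75, adjusted p = 0.00994) and 2.83 after 6 days (SE 0.65, adjusted p = 0.0057). The latter was not called without 6-day replicate 1 (2.62, adjusted p = 0.0540).

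MIR365A, in the intron of MIR193BHG, had 0.416 and 0.497 CPM in young cells, 0.690 and 1.28 CPM after 3 days, 1.40 and 1.12 CPM after 6 days, and 0.0990 and 0.217 CPM in MetaICM. It was higher after 6 days than in young cells by 1.46 (adjusted p = 0.0230), and lower in MetaICM than after 6 days by -2.91 (SE 0.51, adjusted p = 5.4e-05). The former was lost without young replicate 1 or either 6-day library (adjusted p between 0.0927 and 0.215). MIR503 was lower after 3 days by -1.69 (SE 0.43, adjusted p = 0.0113), with 1.96 and 2.07 CPM in young cells against 0.782 and 0.404 CPM, and was not called without the second of these (-1.34, adjusted p = 0.0960).

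In SNHG1, all 7 snoRNAs tested were below young cells at both times, with a median log2FC of -0.68 after 3 days and -0.74 after 6 days. After 6 days 4 of the 7 were called lower, while the exons of SNHG1 stayed under the minimum change. At that time 17.2% of all genes were lower, and 10 of all 72 intronic small RNAs tested (median log2FC -0.29). SNORD27 had 4.16 and 2.90 CPM in young cells, 2.07 and 1.75 CPM after 3 days, 1.61 and 1.28 CPM after 6 days, and 2.18 and 2.26 CPM in MetaICM. Young libraries were the highest, with a log2FC of -1.31 after 6 days (SE 0.31, adjusted p = 0.00669). SNORD29, SNORD30 and SNORD22 differed by -0.99, -0.96 and -0.72 (adjusted p = 0.0165, 0.0247 and 0.0267). Each of the 4 calls was lost without at least 1 library, SNORD27 without 6-day replicate 2 (-1.14, adjusted p = 0.0573), SNORD22, SNORD29 and SNORD30 without 6-day replicate 1 (adjusted p = 0.274, 0.184 and 0.228), and SNORD30 also without 6-day replicate 2 or young replicate 1 (adjusted p = 0.0543 and 0.0566).

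SNORA74A, in the intron of SNHG4, was the intronic row with the firmest change between MetaICM and 6 days. It had 61.5 and 63.0 CPM in young cells, 64.3 and 78.1 CPM after 3 days, 107 and 96.1 CPM after 6 days, and 34.8 and 46.0 CPM in MetaICM. The 6-day libraries were the highest and MetaICM the lowest, as for the exons of SNHG4 at 6 days. The log2FC was 0.70 after 6 days against young cells (SE 0.11, adjusted p = 0.000799), -0.63 in MetaICM against young cells (adjusted p = 0.0104, but -0.41 and 0.238 without MetaICM replicate 1) and -1.32 between MetaICM and 6 days (SE 0.10, adjusted p = 3.37e-10). Other genome copies resemble SNORA74A, and reads that map to several places were not counted.

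SNORD93 in SNHG26 moved with its host, from 1.25 and 1.99 CPM in young cells to 3.38 and 2.6 CPM after 6 days (log2FC 0.92, adjusted p = 0.0456), but was not called without young replicate 1 (0.58, adjusted p = 0.222) or either 6-day library (adjusted p = 0.289 and 0.0716). SNORD49A in SNHG29 fell from 11.8 and 11.1 CPM to 7.14 and 6.91 CPM (log2FC -0.71, adjusted p = 0.00787), and was not called without either 6-day library (adjusted p = 0.0698 and 0.0874). In SNHG3, SNORA73A and SNORA73B were not called after 6 days (log2FC 0.39 for SNORA73A and 0.18 for SNORA73B). In MetaICM against young cells both were negative (-0.09 for SNORA73A and -0.47 for SNORA73B), beside 0.47 for the exons. Between MetaICM and 6 days, SNORA73B was called lower (-0.65), beside -0.17 for the exons. Without MetaICM replicate 1 that SNORA73B difference was -0.51, under the minimum change. MIR181A2 and MIR181B2 in MIR181A2HG were lower in MetaICM than in young cells by -1.73 and -2.44 (adjusted p = 0.0468 and 0.0117). Without either MetaICM library or without young replicate 1, neither was called (adjusted p between 0.0562 and 0.364).

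**Figure D5:**
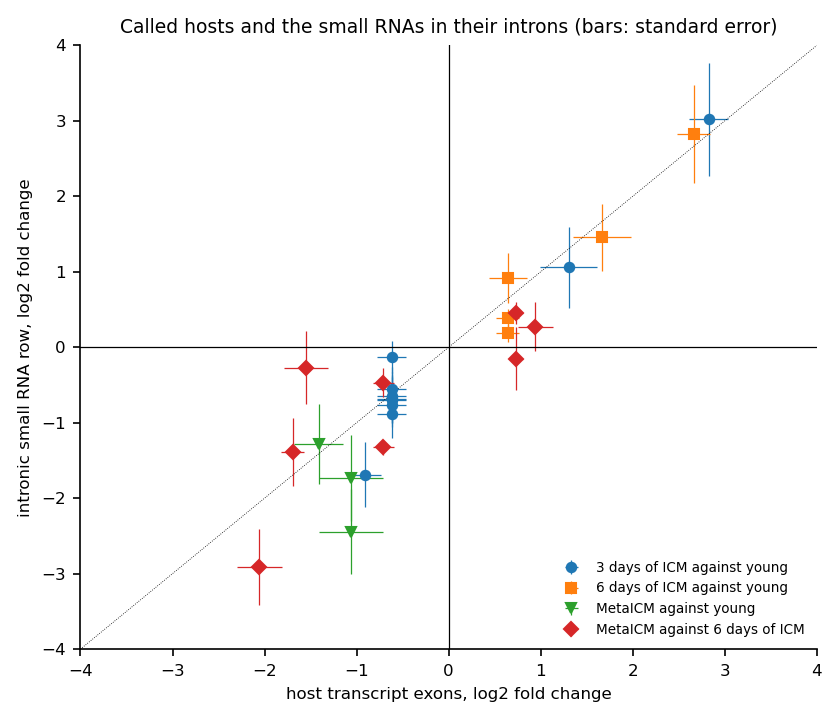
The log2FC of called hosts, from their exons, against that of the small RNAs in their introns, 26 pairs in 4 comparisons with standard errors (bars) and the line of equality (dotted). Of the 26 pairs, 25 lie where both axes have the same sign.

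MIR663AHG on chromosome 20 was set by 1 library. Its exons received 2202 and 6839 CPM in young cells, 2634 and 3936 CPM after 3 days, 1913 and 2552 CPM after 6 days, and 2824 and 2397 CPM in MetaICM. Young replicate 2 stood far above the rest, and no comparison called the host, with a log2FC of -1.02 after 6 days (SE 0.39, adjusted p = 0.0549). MIR663A in its intron had 8146 CPM in young replicate 2 and between 463 and 904 CPM in the 7 other libraries. Its calls against young cells (-2.50, -2.99 and -2.56 in the 3 comparisons) turned in direction without that library, to 0.59, 0.12 and 0.54.

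SNHG14, the long host of the SNORD115 and SNORD116 arrays in the Prader-Willi region of chromosome 15, was not called either. It had 179 and 206 CPM in young cells, 196 and 234 CPM after 3 days, 155 and 175 CPM after 6 days, and 156 and 151 CPM in MetaICM. The mean was highest after 3 days, although those libraries overlapped with young cells, and the log2FC between 6 and 3 days was -0.38 (SE 0.10, adjusted p = 0.00966), under the minimum change. Of 20 intronic snoRNAs tested in that comparison, 18 were negative (median -0.45) and 5, all SNORD116 copies, were called lower. Of all genes, 4.54% were lower between these times. Each of the 5 SNORD116 calls was lost without 3-day replicate 2 and without 6-day replicate 1. The copies resemble each other closely, so single copies are uncertain. SNHG5 and SNHG8, with 12.7 to 22.2 CPM and 13.6 to 24.2 CPM over all libraries, were among the 31 tested hosts that no comparison called, 14 microRNA hosts and 17 snoRNA hosts. Over these 31, fitted log2FC ranged from -1.42 to 0.88, and 13 of them passed the adjusted p in some comparison with a change under the minimum.

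The machinery that acts on these transcripts was described from lists of named genes. Of 15 genes of microRNA processing and silencing, 1 was higher and 3 were lower after 3 days, with a median log2FC of -0.08, where 8.85% of all genes were higher and 13.2% lower. TARBP2, a DICER1 partner, rose by 0.73, whereas DROSHA, which cuts the primary transcript, fell by 0.71, XPO5, which exports the hairpin, fell by 0.72 and AGO2, which carries the guide, fell by 0.65 on the log2 scale. After 6 days 1 of the 15 was higher and 2 were lower, AGO2 at -0.98 and AGO4 at -0.70. At that time 13.3% of all genes were higher and 17.2% lower. In MetaICM against young cells, DROSHA (-0.87), AGO2 (-0.62) and AGO3 (-0.69) were lower and TARBP2 (0.64) higher. In that comparison 8.99% of all genes were lower and 7.41% higher.

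Of 17 genes of snoRNP core and assembly, 5 were lower and 2 higher after 3 days, with a median of -0.38, beside the same shares of all genes (13.2% lower and 8.85% higher). FBL, the box C/D methyltransferase, fell by 0.77, NOP56 by 0.70 and DKC1, the box H/ACA pseudouridine synthase, by 0.63 on the log2 scale, while NOP10 rose by 0.73. After 6 days 2 were lower, FBL at -1.04 and NUFIP1 at -0.72, and 2 were higher, with a median of -0.12, where 17.2% of all genes were lower and 13.3% higher. In MetaICM, FBL had 16.7 and 16.9 CPM against 18.0 and 16.6 CPM in young cells and 7.25 and 9.62 CPM after 6 days. Among genes of nonsense-mediated decay, which degrades many spliced SNHG transcripts, UPF3B was called higher after 6 days (0.62), and SMG1 was called lower in MetaICM against young cells (-0.68).

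Hosts with other names were set beside these. Of 8 tested noncoding hosts outside the naming rule, 1 was called higher and 2 lower after 3 days, and as many after 6 days. Among all genes, 8.85% were higher and 13.2% lower after 3 days, and 13.3% and 17.2% after 6 days. DANCR was higher at both times (0.76 and 0.80) and DLEU2, the host of miR-15a and miR-16, lower (-1.61 and -1.65). CARMN, the host of miR-143 and miR-145, had 36.5 and 48.6 CPM in young cells, 12.8 and 11.0 CPM after 3 days, 1.34 and 1.06 CPM after 6 days, and 11.9 and 15.7 CPM in MetaICM. It fell by 1.83 after 3 days and by 5.14 after 6 days on the log2 scale (adjusted p = 1.23e-05 and 1.26e-07). In MetaICM, FTX and CARMN were called lower than in young cells, where 8.99% of all genes were lower. Against 6 days, FTX was called lower and DLEU2 and CARMN higher, where 12% of all genes were lower and 15.7% higher. The TOP class snoRNA hosts GAS5 and ZFAS1 were not called, at -0.02 and -0.16 after 3 days. Among 15 protein-coding hosts of microRNAs, 1 was called higher and 3 lower after 3 days, and 2 higher and 4 lower after 6 days. Lower after 3 days were MCM7 (host of miR-106b and miR-25), SMC4 (miR-15b and miR-16) and MEST (miR-335), by a log2FC of -2.11, -2.33 and -1.38. These 3 and SREBF2 were lower after 6 days. In MetaICM the 3 were higher than after 6 days, but SMC4 was still called lower than in young cells. EGFL7 (miR-126) was higher after 3 days, after 6 days and in MetaICM than in young cells (1.28, 1.30 and 1.03), and PANK1 (miR-107) was higher after 6 days than in young cells (0.95) or after 3 days (0.78).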

How the data were processed

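Factory RNA-Seq of IMR90 was analysed in 8 libraries (young, ICM for 3 days, ICM for 6 days and MetaICM, 2 each, grouped by the labels). Per the labels and file headers, the authors aligned paired reads to GRCh37 (hg19) with STAR 2.6.0c and deposited counts of read pairs over RefSeq exons from featureCounts 1.6.3, not normalized, without regard to strand, leaving out pairs that map to several places or overlap several genes. Overlapping or antisense exons therefore lose counts in both genes, and RPKM, computed on the full exon length, is then too low. The study's own nascent values rest on intronic counts, which were not used here.

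Pairs of conditions were fitted (4 libraries) with edgeR 4.0.16 (R 4.3.3), using TMM factors, filterByExpr at a minimum count of 10 and the quasi-likelihood test, two-sided, with Benjamini-Hochberg adjustment over all genes. Standard errors are the log2FC divided by the square root of F. CPM and RPKM used TMM-scaled totals over the 8 libraries. Depth limits low counts most, and no interval covers more than the spread between libraries. Named hosts are those called in any comparison, the 5 with the highest mean RPKM and the 3 uncalled ones with the highest mean count, 29 in all. Small RNAs and list genes were named after their values were seen. The hosts and gene lists were chosen with earlier results of these data known. Alternatives were DESeq2 1.42.0, 3 other scalings, 2 other filters, all libraries in one fit, a replicate block, an adjusted p under 0.01, no minimum change, and each library left out in turn (the lone library is then assumed to vary like the other pair). Replicate numbers were not used to pair the libraries in the main fits. The correlation of replicate differences between conditions ran from -0.13 to 0.23, which cannot exclude a shared culture or batch. Cell line markers were checked. Some results on nonsense-mediated decay genes are not reported here. Figures were drawn with matplotlib 3.10.9.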

Additional observations from a re-analysis of the deposited data

Results flagged for a closer look

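The effect of ICM differed between the exposure times for 2 hosts, by the direct test of 6 against 3 days. MIR17HG was lower at 6 days by a log2FC of -0.77 and MIR600HG by -0.80, both from edgeR's quasi-likelihood test. The MIR17HG call held under all 14 alternatives, whereas that of MIR600HG was lost in 5 of 14, with DESeq2 (adjusted p = 0.0554), with all 8 libraries in one fit, at an adjusted p under 0.01, and without either 6-day library (adjusted p = 0.0552 and 0.0907). One of the 14, no minimum change, reused the main fit and could not lose a call. With 2 libraries per condition, no library could be tested as an outlier.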

How the results depend on the processing

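Of the 47 calls of hosts, 29 held under every alternative in which the host was tested, and 35 under every alternative that keeps all libraries. Dropping the minimum change could not lose a call, so it lends these counts no weight. No call of a host changed sign. All 47 held with DESeq2's size factors, upper-quartile factors and the replicate block, 46 with library totals, 45 without a filter, 44 with all 8 libraries in one fit, 38 with DESeq2 and 36 at an adjusted p under 0.01, while a minimum of 10 counts in every library left 43 to test, all called. Scaling moved the median log2FC over all genes by less than 0.1 in each comparison.

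Counts of called hosts moved by over 1.5 times as follows. After 6 days, lower hosts went from 3 to 6 with all libraries in one fit, with the replicate block and with no minimum change. Between 6 and 3 days, lower hosts went from 2 to 1 with DESeq2, with all libraries in one fit and at an adjusted p under 0.01, and to 4 with no minimum change, while higher hosts went from 0 to 1 without a filter and with the replicate block, and to 3 with no minimum change. In MetaICM against young cells, higher hosts went from 1 to 3 without a filter, 2 with the replicate block and 6 with no minimum change, and lower hosts from 7 to 4 at an adjusted p under 0.01. Against 6 days, higher hosts went from 6 to 12 with no minimum change. The cause was not tested, apart from thresholds that differ by construction.

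Leaving out 1 library gave 3 to 7 higher and 3 to 6 lower hosts after 3 days, and 5 to 9 higher and 3 to 7 lower after 6 days. Between the times it gave 0 to 1 higher and 1 to 4 lower. MetaICM against young cells had 0 to 9 higher (9 without young replicate 1, 0 without MetaICM replicate 2) and 4 to 9 lower (4 without MetaICM replicate 2), and against 6 days 6 to 8 higher and 7 to 13 lower (7 without MetaICM replicate 2). Higher hosts numbered 3 without 3-day replicate 1 and 5 without 6-day replicate 2, and lower hosts after 6 days 7 without young replicate 2 and 5 without young replicate 1. Between the times, lower hosts numbered 4 without 3-day replicate 1 and 1 without 6-day replicate 1. Of the 39 calls of small RNAs, DESeq2 kept 15, an adjusted p under 0.01 kept 11, and one fit of all libraries kept 30. Those of MIR663A against young cells reversed without young replicate 2, to 0.59 after 3 days, 0.12 after 6 days and 0.54 in MetaICM, the other end of the range being -3.40, -3.90 and -3.47 without young replicate 1. Depth limits the small RNAs most, many of which had under 1 CPM.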
